A study of Mus musculus with 12 samples.

Results

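The 10 genes described here were Fos, Fosb, Jun, Junb, Atf3, Egr1, Nr4a1, Ier2, Dusp1 and Myc, a set of immediate early genes together with Myc. They were chosen by name, and all 10 were present among the 24541 rows of the gene count table. RNA-seq of polyadenylated RNA had been made from 2 fat depots of 6-week-old mice, interscapular brown adipose tissue and inguinal white adipose tissue. The mice carried the Ucp1-CreEvdr transgene in 1 copy or in 2 copies, or were wild type without it, which gave 6 tissue by genotype groups with 2 libraries each. Ucp1-CreEvdr is a bacterial artificial chromosome transgene that places Cre recombinase under the promoter of Ucp1, the uncoupling protein of thermogenic adipocytes. All animals were bred in house, kept at room temperature on standard chow and killed in the morning with no other treatment. The labels name no floxed allele, so the transgene was the labelled difference between genotypes. Whether paired libraries represent different animals, and which depots were taken from one animal, is not stated, and p-values below measure only the spread between these libraries.

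Immediate early genes are transcribed within minutes of a stimulus, without new protein synthesis, because the transcription factors that switch them on (CREB, the serum response factor and its ternary complex partners) are already bound or waiting in the cell. Most of their products are themselves transcription factors with short-lived mRNAs, so a single tissue sample records the recent past of that tissue. In brown fat, noradrenaline acting through cyclic AMP is a well-known inducer of several of them, Nr4a1 among them. Handling, dissection and tissue dissociation are also known inducers, in most tissues.

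The libraries held 15679884 to 31814056 counted reads. The CRE row of the table had 0 reads in the 4 wild-type libraries, 606 and 444 reads in brown tissue with 1 copy, and 3243 and 1770 reads in brown tissue with 2 copies. In white tissue it had 83 and 0 reads with 1 copy and 0 in both libraries with 2 copies. The tissue labels fitted the summed depot markers, in CPM (counts scaled to a common library size). The 7 brown adipocyte markers summed to 9756 to 19420 CPM in brown libraries and 21.5 to 502 CPM in white ones. The 6 white adipocyte and posterior subcutaneous markers summed to 27.6 to 172.3 CPM in brown libraries and 417 to 1677 CPM in white ones. Zic1 stood at 5.95 to 17.2 CPM in brown libraries and at 0 to 0.0375 in white ones. Hoxc10, a posterior subcutaneous marker, was at 0 in every brown library and at 8.71 to 32.15 CPM in white ones. Lep, of the white list, overlapped, at 0.999 to 87.1 CPM in brown libraries and 19.6 to 237.1 CPM in white ones. Markers of other tissue moved with genotype. The summed level of 15 lymphocyte markers was 2192 to 2411 CPM in the 4 transgenic white libraries, against 9.47 and 13.02 CPM in wild-type white libraries and 6.23 to 16.5 CPM in brown ones. Over the same white groups the sum of 5 general adipocyte markers was 15370 and 14660 CPM in wild type, 9055 and 7220 CPM with 1 copy and 4324 and 3187 CPM with 2 copies. In brown tissue the sum of 19 skeletal muscle markers was 19.9 to 36.7 CPM in the 4 transgenic libraries, with 7 to 9 of the 19 at 0 in each, against 1644 and 4090 CPM in wild type. Muscle markers also reached 2499 CPM in replicate 1 of white tissue with 1 copy.

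In white adipose tissue most of the 10 genes differed by genotype. With 1 copy of the transgene Ier2, Junb, Myc, Nr4a1 and Egr1 rose and Jun, Atf3 and Dusp1 fell, and with 2 copies Ier2, Junb, Myc, Egr1, Nr4a1 and Fos rose and Jun and Dusp1 fell. The called genes of this family thus moved in both directions: the AP-1 subunits Junb and Jun went opposite ways. That makes 8 of 10 with 1 copy (5 higher, 3 lower) and 8 of 10 with 2 copies (6 higher, 2 lower), where a call is an adjusted p under 0.05 in edgeR's quasi-likelihood test with Benjamini-Hochberg adjustment over all 15287 genes tested in white tissue. These comparisons called 52.0% and 61.0% of all genes tested, so a changed gene was the usual case in this tissue. The median log2 fold change of the 10 genes was 0.27 with 1 copy and 0.73 with 2 copies, beside 0.01 in each over all genes. All 15 lymphocyte markers rose in both comparisons and all 5 general adipocyte markers fell. Summed fibroblast and progenitor markers went from 8046 and 5598 CPM in wild type to 2121 to 2853 CPM in the transgenic libraries. Schwann cell and nerve markers went from 584.4 and 522.1 CPM to 190.9 to 227.7 CPM, while macrophage sums overlapped. The part of these other markers was not tested. Because all 4 transgenic white libraries carried the lymphocyte markers and both wild-type ones did not, genotype and lymphocyte RNA cannot be told apart for any of these genes. In bulk tissue, fewer cells of a type and less RNA per cell cannot be told apart either.

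**Figure D1:**
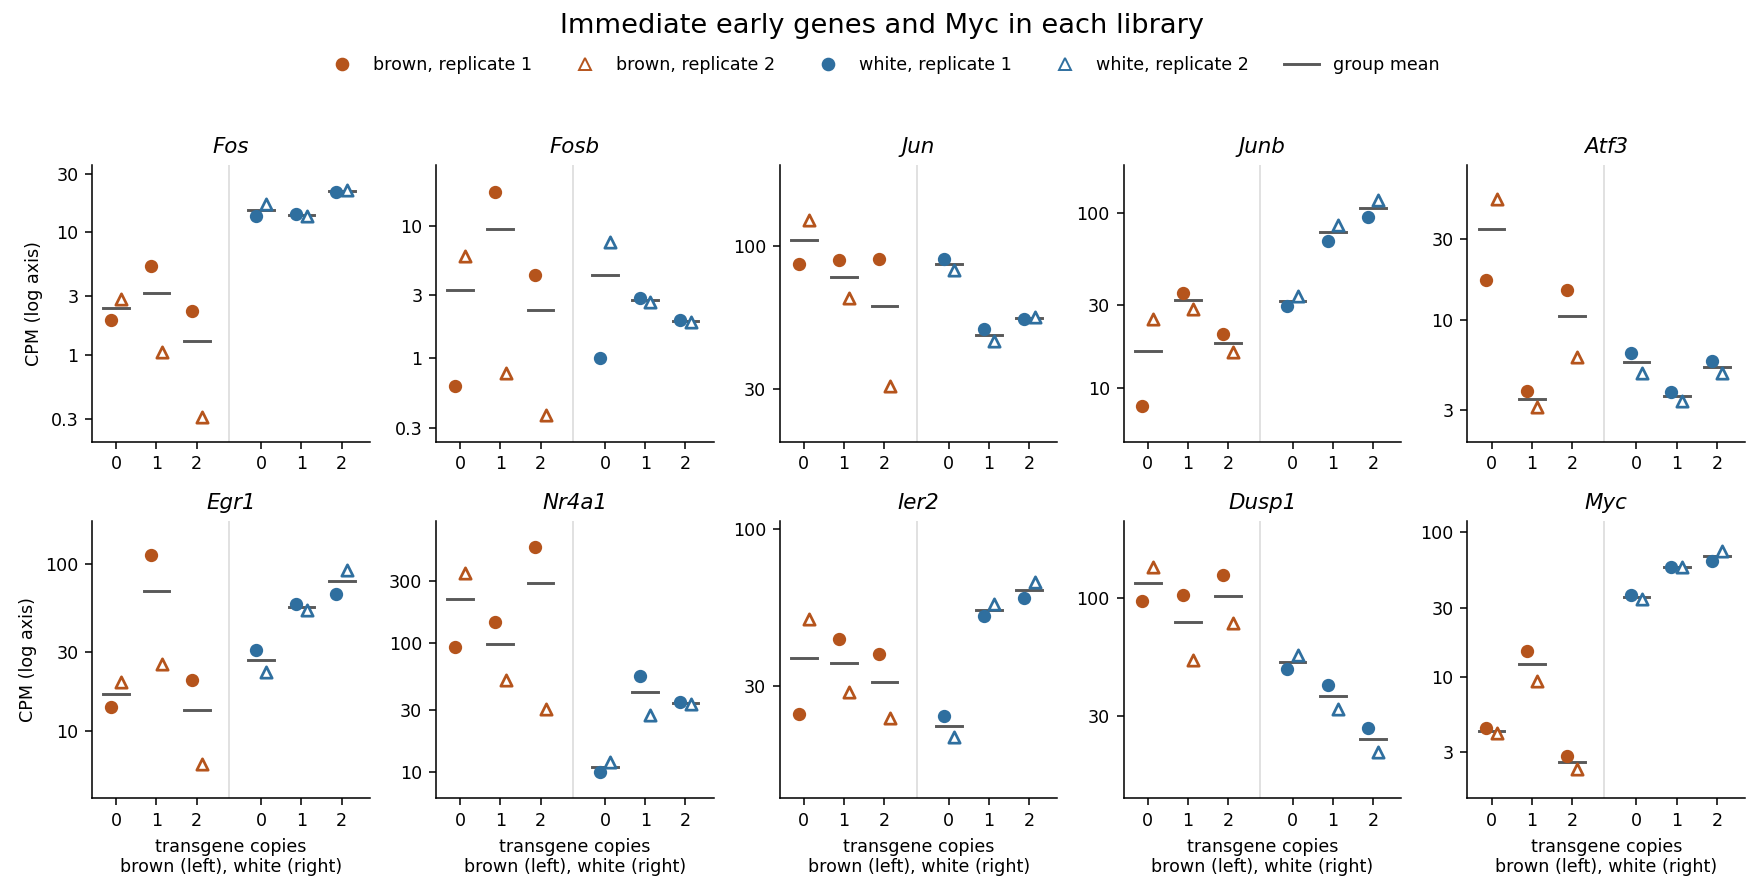
Level of each gene in CPM (log axis) in the 12 libraries, by transgene copies (0, 1, 2) in brown (left) and white tissue (right). Circles are replicate 1, triangles replicate 2 and bars group means. In white tissue the libraries of a group lie close together for every gene but Fosb and Nr4a1, while in brown tissue they often stand far apart.

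Fos and Fosb encode subunits of the AP-1 transcription factor that bind DNA only as partners of a Jun protein. Fos was at 13.5 and 17.2 CPM in wild-type white tissue, at 14.2 and 13.5 CPM with 1 copy and at 21.5 and 22.4 CPM with 2 copies. Both libraries with 2 copies lay above the other 4, and the difference of 2 copies from wild type was 0.52 ± 0.13 (log2 fold change ± SE, adjusted p = 0.0166). It lost its call without either library of the 2-copy group, where the adjusted p reached 0.0834. Fosb was at 1.01 and 7.53 CPM in wild type, at 2.85 and 2.67 CPM with 1 copy and at 1.93 and 1.88 CPM with 2 copies. The 2 wild-type libraries enclosed the 4 transgenic ones, and neither copy number passed the test against wild type (adjusted p = 0.551 for 1 copy, 0.28 for 2 copies). The value of Fosb with 1 copy turned on a single wild-type library: without replicate 2 the log2 fold change was 1.44 (adjusted p = 0.0165), against -0.63 with it.

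Jun and Junb are the Jun-family subunits of AP-1, of which Junb is the weaker activator and often counteracts Jun. Jun was at 89.8 and 81.8 CPM in wild-type white tissue, at 49.6 and 45.0 CPM with 1 copy and at 54.1 and 54.7 CPM with 2 copies. All 4 transgenic libraries lay below both wild-type ones, by a log2 fold change of -0.86 ± 0.09 with 1 copy (adjusted p = 0.000733) and -0.66 ± 0.09 with 2 copies (adjusted p = 0.00114). Junb ran the other way, at 29.7 and 33.4 CPM in wild type, 69.4 and 86.2 CPM with 1 copy and 95.3 and 118.7 CPM with 2 copies. Its 3 groups did not overlap, and it rose by 1.30 ± 0.15 with 1 copy (adjusted p = 0.00127) and by 1.76 ± 0.16 with 2 copies (adjusted p = 0.000269). Junb overlaps Prdx2 on the opposite strand, and Jun and Atf3 overlap the non-coding genes Junos and Gm24748, also on the opposite strand. These overlaps are of whole gene spans, and overlap of exons was not checked. The sources used here do not give the strand setting of the counting, so whether these pairs share reads is not known. Atf3, a bZIP repressor of the ATF/CREB family known as a stress-response gene, was at 6.45 and 4.95 CPM in wild type, 3.83 and 3.38 CPM with 1 copy and 5.79 and 4.92 CPM with 2 copies. It fell by 0.66 ± 0.22 on the log2 scale with 1 copy (adjusted p = 0.0436), a call that only 1 of 6 fits without a single library kept (adjusted p up to 0.18), and its value with 2 copies was -0.09 ± 0.21 (adjusted p = 0.734).

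Egr1 encodes a zinc-finger transcription factor that growth signals induce through the serum response factor. It was at 30.6 and 22.7 CPM in wild-type white tissue, 57.7 and 53.4 CPM with 1 copy and 66.5 and 92.2 CPM with 2 copies. Every transgenic library was above both wild-type ones, with log2 fold changes of 1.06 ± 0.21 for 1 copy (adjusted p = 0.00879) and 1.57 ± 0.21 for 2 copies (adjusted p = 0.00151). Nr4a1 encodes an orphan nuclear receptor, and it was at 10.09 and 11.95 CPM in wild type, 55.2 and 27.5 CPM with 1 copy and 34.7 and 33.8 CPM with 2 copies. It rose by 1.91 ± 0.34 with 1 copy (adjusted p = 0.00694) and by 1.64 ± 0.33 with 2 copies (adjusted p = 0.00867). Nr4a1 lost both calls when either wild-type library was left out, with an adjusted p of up to 0.062 for 1 copy and up to 0.0772 for 2 copies.

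Ier2, a small nuclear protein of the immediate early response, had the smallest adjusted p of the 10 in both white comparisons. It was at 23.8 and 20.2 CPM in wild type, 51.1 and 56.0 CPM with 1 copy and 58.9 and 66.3 CPM with 2 copies. The groups did not overlap, and the log2 fold changes were 1.28 ± 0.12 (adjusted p = 0.000497) and 1.51 ± 0.12 (adjusted p = 0.000174). Dusp1, a phosphatase that switches MAP kinases off and so limits the induction of the other genes, was at 48.3 and 55.9 CPM in wild type, 41.0 and 32.2 CPM with 1 copy and 26.6 and 20.7 CPM with 2 copies. Its 3 groups stepped down without overlap, by -0.51 ± 0.17 with 1 copy (adjusted p = 0.0496) and -1.14 ± 0.17 with 2 copies (adjusted p = 0.00221). The 1-copy call on Dusp1 was kept in 3 of 6 fits without a single library, with an adjusted p of up to 0.213. Dusp1 also has an annotated neighbour on the opposite strand that overlaps it, Ergic1.

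Myc encodes a transcription factor that pairs with Max on E-box sequences and drives genes of ribosome production and cell growth. It was at 36.9 and 34.5 CPM in wild-type white tissue, 57.8 and 57.7 CPM with 1 copy and 63.1 and 74.7 CPM with 2 copies. The groups did not overlap, and Myc rose by 0.69 ± 0.10 with 1 copy (adjusted p = 0.00257) and by 0.95 ± 0.10 with 2 copies (adjusted p = 0.000481). The calls on Ier2, Junb, Jun, Egr1 and Myc in both white comparisons, and that on Dusp1 with 2 copies, were kept in all 6 fits that left out a single white library. The fit of all 12 libraries, which shares the wider brown spread, kept Ier2, Junb and Myc in both comparisons and Dusp1 with 2 copies. It ended the calls on Jun (adjusted p = 0.129 with 1 copy and 0.216 with 2 copies), on Egr1 (0.242 and 0.0894), on Nr4a1 (0.261 and 0.316), on Atf3 (0.338) and Dusp1 (0.263) with 1 copy and on Fos with 2 copies (0.476). Between 2 copies and 1 copy, edgeR called 0 of the 10 genes (1.86% of all genes were called), with 6 of 10 at an unadjusted p under 0.05 and 2 called by DESeq2, namely Fos (adjusted p = 0.00513) and Dusp1 (adjusted p = 0.0399).

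**Figure D2:**
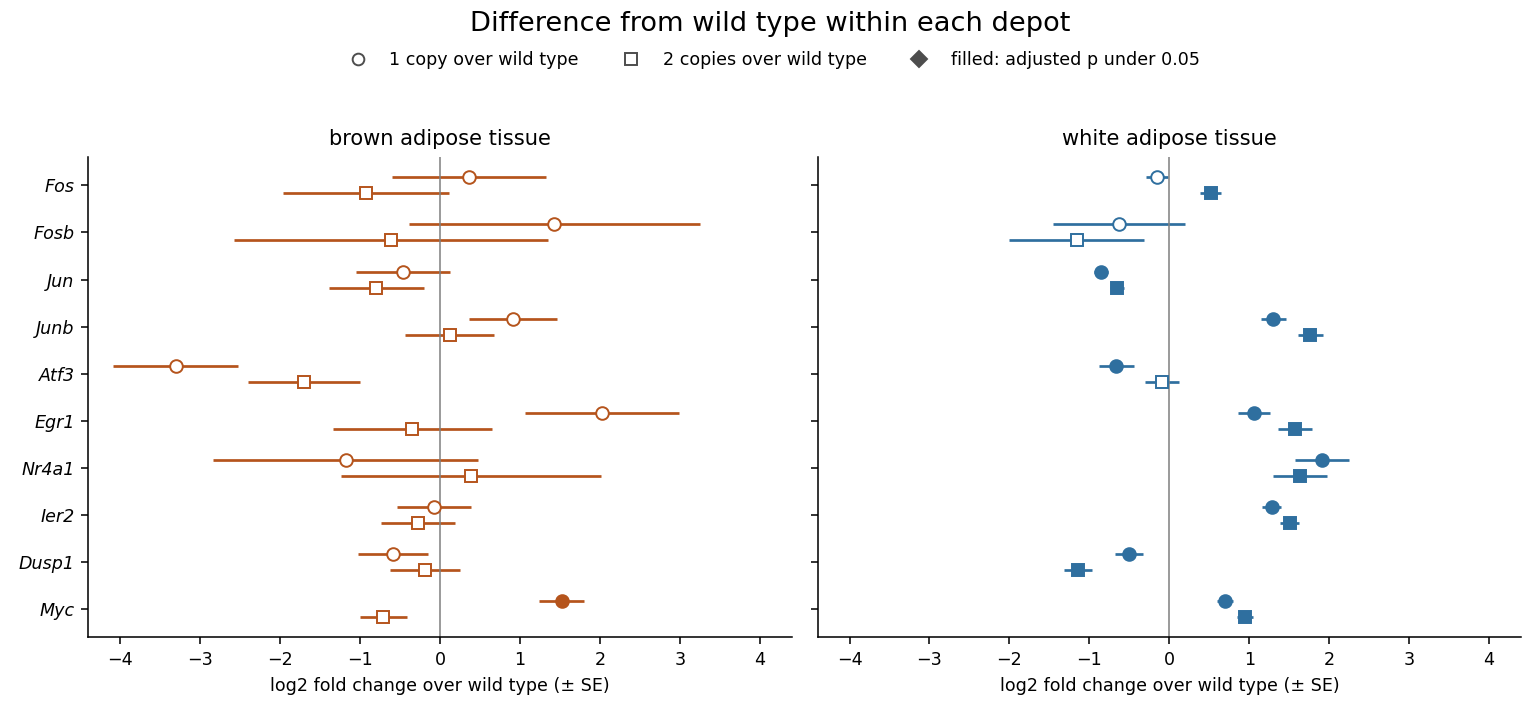
Log2 fold change over wild type (± SE) of each gene in brown and white adipose tissue, circles for 1 copy and squares for 2 copies, filled where the adjusted p was under 0.05. White tissue holds 8 filled points for each copy number, with short error bars, and brown tissue a single one, Myc with 1 copy.

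Promoter sequences of 7 of the 10 genes were searched (RefSeq, build GRCm38.p6, 250 bases before the start site and 50 from it on). Of the 7 searched, 6 held the core of the cyclic AMP response element, TGACG, on either strand. That core is found in 20.81% of the 32851 promoters of the same length. Printed here are the promoters of the 4 genes among these 7 that passed the white test with 2 copies and hold the core. Capitals mark each match to the core, its longer form TGACGTC (which contains the core), the E-box CACGTG and the TATA box TATAAA. On the opposite strand the core reads CGTCA. Fos lies at chr12:85473640-85473939 on the plus strand, with cores that begin at bases -129 and -66 and a TATA box at -33, counting the start site as base 1. Junb lies at chr8:84978699-84978998 on the minus strand with 1 core at -106 and a TATA match at the RefSeq start site itself. That start is base 84978748, and the GENCODE start of Junb, base 84978718, lies downstream of it and of the TATA match. Nr4a1 lies at chr15:101266596-101266895 on the plus strand and has 4 cores, all on the opposite strand, the nearest at -40. Dusp1 lies at chr17:26508423-26508722 on the minus strand, where the core at -143 is part of a palindrome that matches on both strands, another copy begins at -191, and an E-box begins at -126.
Fos: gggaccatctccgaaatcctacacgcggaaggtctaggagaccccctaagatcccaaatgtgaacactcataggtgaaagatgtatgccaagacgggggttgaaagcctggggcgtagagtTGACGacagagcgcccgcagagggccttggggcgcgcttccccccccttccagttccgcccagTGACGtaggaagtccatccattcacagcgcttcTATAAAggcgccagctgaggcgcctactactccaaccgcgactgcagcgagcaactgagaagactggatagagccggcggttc
Junb: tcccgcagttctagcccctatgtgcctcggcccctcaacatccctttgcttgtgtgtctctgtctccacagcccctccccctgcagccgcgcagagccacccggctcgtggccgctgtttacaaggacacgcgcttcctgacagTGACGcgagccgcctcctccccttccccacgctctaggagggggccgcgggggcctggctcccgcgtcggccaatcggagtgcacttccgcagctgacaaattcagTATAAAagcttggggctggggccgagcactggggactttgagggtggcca
Nr4a1: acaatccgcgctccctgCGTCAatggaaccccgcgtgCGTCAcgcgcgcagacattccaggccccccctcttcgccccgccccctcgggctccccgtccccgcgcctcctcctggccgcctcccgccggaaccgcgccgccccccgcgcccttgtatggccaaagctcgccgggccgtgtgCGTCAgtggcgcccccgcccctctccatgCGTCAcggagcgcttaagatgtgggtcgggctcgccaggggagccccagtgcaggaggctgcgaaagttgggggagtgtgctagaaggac
Dusp1: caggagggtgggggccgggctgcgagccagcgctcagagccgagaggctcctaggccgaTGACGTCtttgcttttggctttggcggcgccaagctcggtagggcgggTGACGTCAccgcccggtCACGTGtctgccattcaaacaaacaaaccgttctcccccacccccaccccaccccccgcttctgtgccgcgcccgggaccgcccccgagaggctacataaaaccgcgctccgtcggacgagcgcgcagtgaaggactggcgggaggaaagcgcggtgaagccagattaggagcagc

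The genes thus differ in the number and strand of these matches: the core occurs in genes that rose in white tissue (Fos, Junb, Nr4a1) and in a gene that fell (Dusp1). Fosb held 1 core at -60 and Atf3 held 1 at -7, on the opposite strand, while Jun, which fell in white tissue, had no match to any of the motifs searched. The AP-1 element TGANTCA and the CArG box, the site of the serum response factor, had 0 matches in the 7 windows. These elements were found in 7.808% and 1.629% of all promoters. Egr1, Ier2 and Myc were not searched, so the motif counts do not cover them. The TATA box was found in 2 of 7, against 13.62% of all promoters, the E-box in 1 of 7, against 7.15%, and the longer core form in 1 of 7, against 3.205%. A match is a run of letters in a 300-base window and no measure of binding, and these windows leave out more distant elements.

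**Figure D3:**
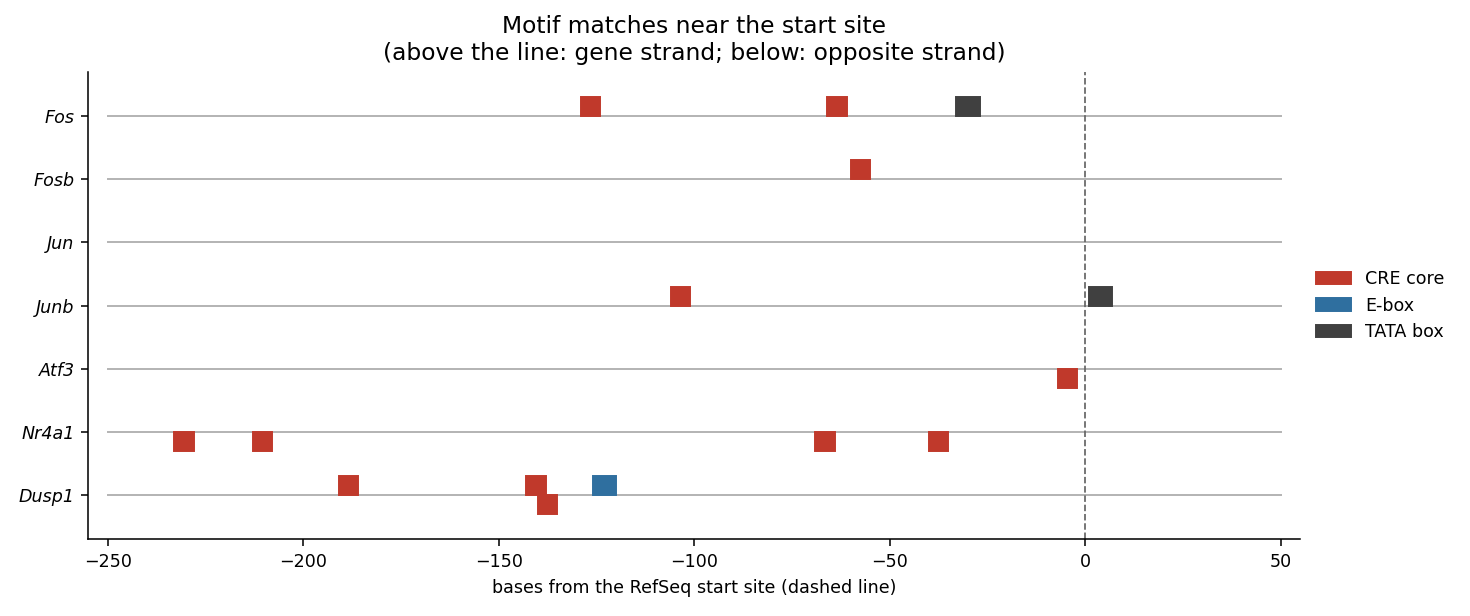
Position of motif matches in the promoters of 7 genes, in bases from the RefSeq start site. Boxes above a line lie on the strand of the gene and boxes below it on the opposite strand; Nr4a1 has 4 cores below the line and Jun has no box.

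In brown adipose tissue Myc was the gene of the 10 that passed the test. It was at 4.43 and 4.08 CPM in wild type, at 15.1 and 9.43 CPM with 1 copy and at 2.86 and 2.31 CPM with 2 copies, so the groups did not overlap and the 1-copy group was the highest. These levels rest on 37 to 199 reads a library. Myc rose by 1.52 ± 0.28 with 1 copy against wild type (adjusted p = 0.0278) and was lower by -2.23 ± 0.29 with 2 copies than with 1 copy (adjusted p = 0.0187). With 2 copies against wild type its log2 fold change was -0.71 ± 0.30 (adjusted p = 0.261). Both calls were kept in 2 of 6 fits without a single library, and each was lost without any of the 4 libraries it compares, where the adjusted p reached 0.262 against wild type and 0.121 for 2 copies against 1 copy, with no change of sign. Among all 13414 genes tested in brown tissue 4.07% were called with 1 copy, 1.29% with 2 copies and 1.95% between 2 copies and 1 copy, and the 10 genes gave 1, 0 and 1 calls. For the count of 0 by edgeR with 2 copies, 1 of 10 genes had an unadjusted p under 0.05 and DESeq2 called 0. Skeletal muscle markers moved along with these comparisons, since 14 of 19 fell with 1 copy and 12 of 19 with 2 copies, and their part in the result was not tested. Between the copy numbers, where Myc also differed, their sums were 32.6 and 36.7 CPM with 2 copies, against 23.0 and 19.9 CPM with 1 copy.

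Atf3 had the widest gap from wild type of the other genes in brown tissue. It was at 17.3 and 50.8 CPM in wild type, 3.86 and 3.12 CPM with 1 copy and 15.0 and 6.13 CPM with 2 copies. The 3 groups did not overlap, with both wild-type libraries above all 4 transgenic ones, yet the log2 fold change with 1 copy, -3.31 ± 0.78, missed the threshold (adjusted p = 0.112). DESeq2 called it (adjusted p = 0.00148), as did the fit of all 12 libraries (adjusted p = 0.0136). That fit also takes in the white libraries, in which the spread of Atf3 was narrower. With 2 copies the value was -1.70 ± 0.70 (adjusted p = 0.302). Bag3, a cochaperone induced by protein damage, had the same order of groups, with 236.2 ± 5.20 CPM in wild type, 62.8 ± 3.34 CPM with 1 copy and 132.8 ± 48.7 CPM with 2 copies (SD, n = 2 each), and it passed with 1 copy (-1.92 ± 0.24, adjusted p = 0.0157).

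The other 8 genes had no call in brown tissue, where the 2 libraries of a group often lay far apart. Fos was at 1.94 and 2.87 CPM in wild type, 5.30 and 1.06 CPM with 1 copy and 2.28 and 0.313 CPM with 2 copies, the last of these from 5 reads. Fosb was at 0.623 and 5.89 CPM in wild type, 18.0 and 0.780 CPM with 1 copy and 4.21 and 0.375 CPM with 2 copies. Each group of Fosb spanned at least 9.46-fold between its libraries, and the groups overlapped. Jun was at 85.7 and 124.1 CPM in wild type, 88.7 and 64.5 CPM with 1 copy and 89.7 and 30.6 CPM with 2 copies, and its groups overlapped. Junb was at 7.89 and 24.9 CPM in wild type, 35.1 and 28.4 CPM with 1 copy and 20.3 and 16.01 CPM with 2 copies, and its 1-copy libraries stood above the other 4 (log2 fold change over wild type 0.91 ± 0.55, adjusted p = 0.424).

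Egr1 was at 13.98 and 19.6 CPM in wild-type brown tissue, 113.8 and 25.3 CPM with 1 copy and 20.3 and 6.32 CPM with 2 copies. Its 1-copy libraries were the highest of the 6, but they differed 4.50-fold from each other (log2 fold change over wild type 2.03 ± 0.96, adjusted p = 0.343). Nr4a1 was at 91.95 and 345.5 CPM in wild type, 143.1 and 51.8 CPM with 1 copy and 540.9 and 30.8 CPM with 2 copies. The highest and the lowest Nr4a1 level of brown tissue thus belonged to the same group, 17.6-fold apart. Ier2 was at 24.2 and 49.99 CPM in wild type, 42.9 and 28.6 CPM with 1 copy and 38.3 and 23.4 CPM with 2 copies, and Dusp1 at 96.9 and 137.3 CPM, 103.6 and 53.3 CPM, and 127.1 and 77.3 CPM in the same groups. For both genes every pair of groups overlapped.

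The spread between brown libraries had a direction. In wild-type brown tissue replicate 2 was higher than replicate 1 for 9 of 10 genes, Myc being the exception, while replicate 1 was higher for 10 of 10 with 1 copy and for 10 of 10 with 2 copies. Over all 15559 genes compared the 2 libraries of these groups were nearly even, with 46.7% to 50.4% of genes higher in replicate 1. The median difference between the libraries, in log2 CPM without sign, was 0.80 for the 10 genes against 0.23 for all genes in wild type, 0.81 against 0.14 with 1 copy and 1.41 against 0.19 with 2 copies. In white tissue the corresponding medians were 0.24 against 0.19 in wild type, 0.14 against 0.13 with 1 copy and 0.20 against 0.14 with 2 copies, and the genes split 5 to 5, 8 to 2 and 4 to 6 between replicates 1 and 2. A replicate number here is only a name, and the genes of a library are not independent of each other.

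**Figure D4:**
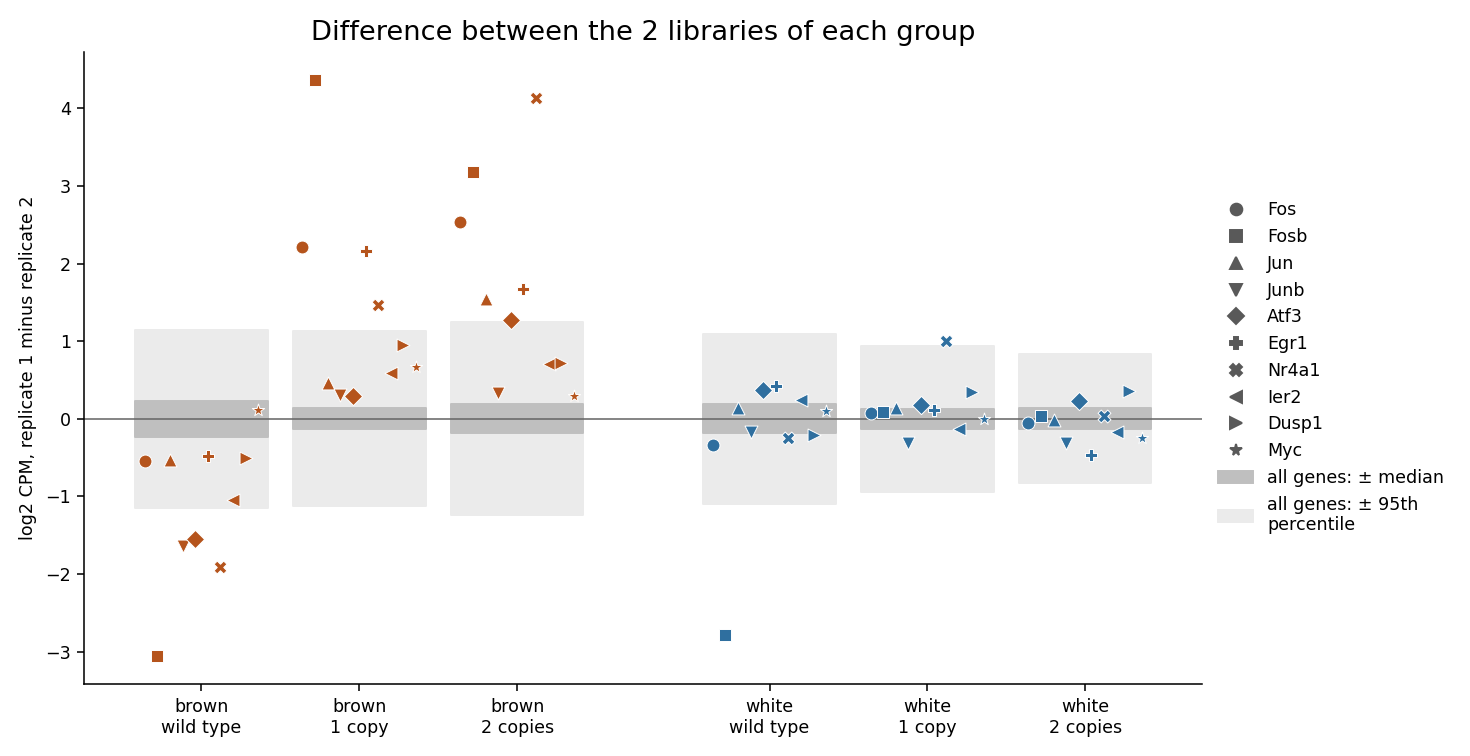
Difference in log2 CPM between replicate 1 and replicate 2 of each group, 1 symbol per gene. Dark and light boxes give the median and the 95th percentile of the difference over all genes, without sign. All 10 symbols lie above 0 in brown tissue with 1 copy and with 2 copies, and 9 of 10 lie below 0 in wild-type brown tissue.

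The same spread was also described by edgeR's biological coefficient of variation per gene, which the quasi-likelihood tests did not use. In brown tissue it was 1.20 for Fosb, 0.997 for Nr4a1, 0.689 for Fos and 0.626 for Egr1, against a median of 0.131 over all genes, and 9 of the 10 genes lay above at least 92.9% of genes. Myc had the lowest value of the 10, 0.205, above 77.3% of genes. In white tissue the values went from 0.0908 for Jun to 0.566 for Fosb, with a median of 0.127 over all genes, and Jun, Myc, Ier2, Fos and Junb were below that median. Fosb was thus the most variable of the 10 in both depots. Over the 6 libraries of a depot the median r of the 45 pairs of these genes was 0.61 in brown tissue, with 6 pairs below 0 and 8 over 0.8. In white tissue it was -0.04, with 24 pairs below 0 and 10 over 0.8, since close pairs there went both ways (0.99 for Egr1 with Myc, -0.93 for Egr1 with Dusp1). These points share their libraries, so the values only describe them.

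Heat shock genes did not always move with the 10 genes between replicates. In brown tissue with 2 copies all 13 heat shock genes were higher in replicate 2, the library in which all 10 immediate early genes were lower, while with 1 copy all 13 were higher in replicate 1, as the 10 genes were. The 49 other early response genes followed the 10 genes more often than not: 42 of 49 were higher in replicate 2 in wild type, 35 of 49 in replicate 1 with 1 copy and 38 of 49 in replicate 1 with 2 copies. Wild-type replicate 2, with the higher values, was the deepest library (31814056 reads), and the part of depth in this was not tested.

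Brown and white tissue differed for Fos, Myc and Dusp1 in every genotype, in the fit of all 12 libraries, though the calls on Fos and Dusp1 in wild type and with 1 copy were lost without some single libraries. Myc was lower in brown tissue with log2 fold changes of -3.08 ± 0.20 in wild type (adjusted p = 1.28e-06), -2.24 ± 0.19 with 1 copy (adjusted p = 2.25e-06) and -4.74 ± 0.22 with 2 copies (adjusted p = 2.86e-08). Fos was lower in brown tissue too, at -2.64 ± 0.67 in wild type (adjusted p = 0.00816), -2.13 ± 0.67 with 1 copy (adjusted p = 0.019) and -4.12 ± 0.75 with 2 copies (adjusted p = 0.000939). Dusp1 was higher in brown tissue, at 1.17 ± 0.35 in wild type (adjusted p = 0.0186), 1.10 ± 0.35 with 1 copy (adjusted p = 0.0221) and 2.11 ± 0.36 with 2 copies (adjusted p = 0.000736). The phosphatase Dusp1 and the AP-1 subunit Fos thus lay on opposite sides of the depot comparison. The counts of calls were 5 of 10 in wild type (3 higher, 2 lower), 4 of 10 with 1 copy (1 higher, 3 lower) and 6 of 10 with 2 copies (1 higher, 5 lower), beside 61.1%, 70.1% and 74.4% of all genes. Markers of other tissue moved with these contrasts: all 15 lymphocyte markers were lower in brown tissue with 1 copy and with 2 copies, and 15 of 19 muscle markers were higher in wild-type brown tissue. The 7 epithelial markers summed to 0.375 to 2.72 CPM in brown libraries and 347.5 to 1166 CPM in white ones. The 7 fibroblast and progenitor markers summed to 669.4 to 1228 CPM in brown and 2121 to 8046 CPM in white libraries. Endothelial markers went the other way, at 1272 to 1710 CPM in brown and 581.8 to 976.9 CPM in white libraries. The part of these markers in the calls was not tested.

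Nr4a1 and Atf3 were higher in wild-type brown than in wild-type white tissue, by 4.31 ± 1.39 (adjusted p = 0.0311) and 2.59 ± 0.53 (adjusted p = 0.00244). With 2 copies the value for Nr4a1 was 3.06 ± 1.29 (adjusted p = 0.0662), and 1 of the 2 brown libraries lay below both white ones. DESeq2 called Nr4a1 there (adjusted p = 0.0113). It also called Atf3 with 2 copies (adjusted p = 0.046), Junb in wild type (0.0265) and Jun with 1 copy (0.0443). Junb was lower in brown tissue with 1 copy (-1.29 ± 0.41, adjusted p = 0.0224) and with 2 copies (-2.56 ± 0.43, adjusted p = 0.000766). Egr1 (-2.59 ± 0.75, adjusted p = 0.0147) and Ier2 (-1.02 ± 0.35, adjusted p = 0.0255) were lower in brown tissue with 2 copies. By edgeR, Jun and Fosb had no depot call in any genotype with all libraries in the fit. Of these calls, Nr4a1 in wild type was kept in 7 of 12 fits without a single library, Junb with 1 copy and Ier2 with 2 copies in 9 of 12 (adjusted p up to 0.109 and 0.155) and Egr1 with 2 copies in 10 of 12. Dusp1 was kept in 9 of 12 in wild type (adjusted p up to 0.112) and 10 of 12 with 1 copy (up to 0.186), and Fos in 11 of 12 in wild type (up to 0.0515) and 10 of 12 with 1 copy (up to 0.0796), while Myc in all 3 genotypes, Atf3 in wild type and Fos, Junb and Dusp1 with 2 copies were kept in 12 of 12. The median log2 fold change of all genes, brown over white, was -0.04 in wild type and -0.24 with 1 copy and with 2 copies, and with DESeq2's median-of-ratios scaling in place of TMM it moved by 0.12 with 1 copy.

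**Figure D5:**
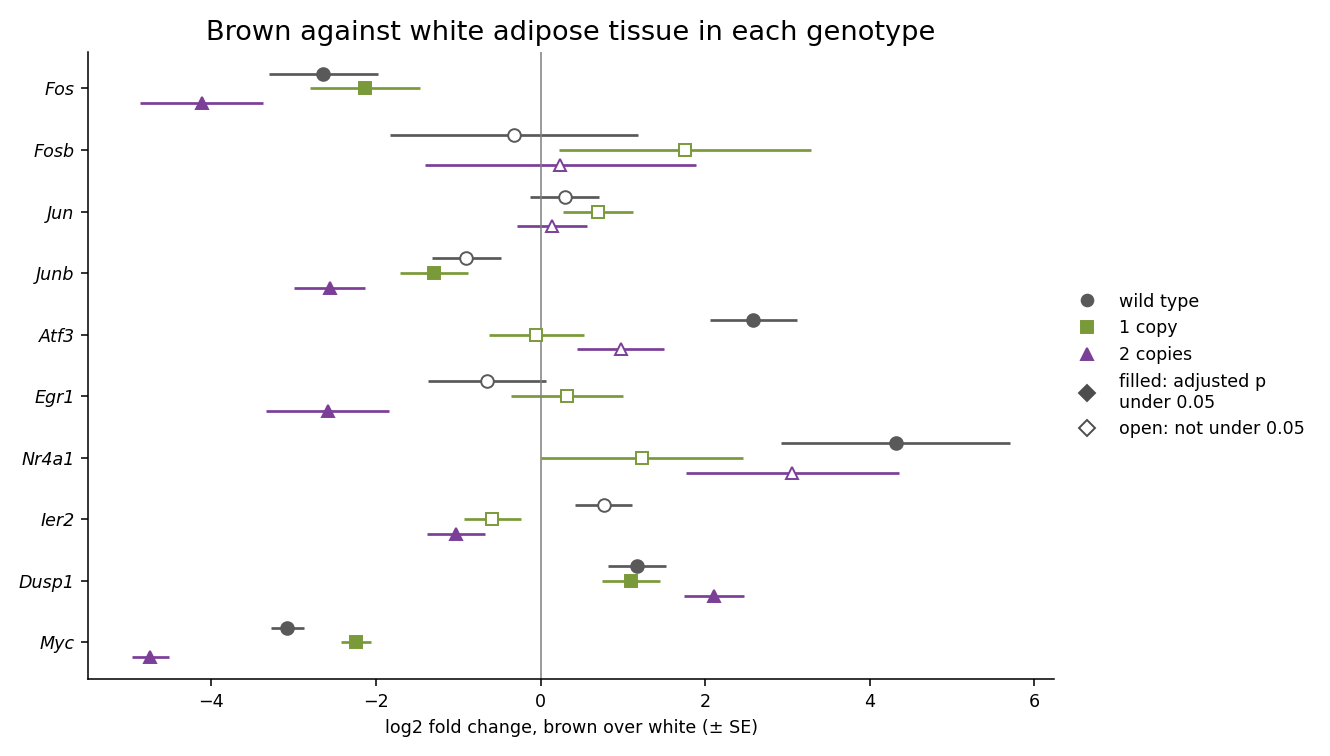
Log2 fold change of brown over white tissue (± SE) for each gene in wild type, 1 copy and 2 copies, filled where the adjusted p was under 0.05. Myc and Fos lie left of 0 and Dusp1 right of 0 in every genotype.

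Per kilobase of exon, which allows levels of different genes to be set side by side, the order of the genes differed between depots. In wild-type brown tissue Nr4a1 averaged 62.3 ± 51.1 CPM per kb (SD, n = 2), Dusp1 35.4 ± 8.64 and Jun 32.9 ± 8.52. Nr4a1 led in replicate 2 alone (98.5 CPM per kb), and in replicate 1 its 26.2 lay below the 29.25 of Dusp1 and the 26.9 of Jun. Fosb was the lowest at 0.522 ± 0.597. In white tissue with 2 copies Junb led at 46.5 ± 7.18 CPM per kb, followed by Ier2 at 41.1 ± 3.46 and Myc at 25.4 ± 3.02, and in wild-type white tissue Jun led at 26.9 ± 1.77, followed by Dusp1 at 15.7 ± 1.63, Ier2 at 14.5 ± 1.68 and Junb at 13.7 ± 1.16. Jun thus led the 10 genes in wild-type white tissue, and Junb led in white tissue with 2 copies. Across the 6 groups Myc was the gene whose groups fell into a full order with no overlap between neighbours, from 68.9 ± 8.19 CPM in white tissue with 2 copies through 57.7 ± 0.0798 with 1 copy and 35.7 ± 1.66 in wild-type white tissue to 12.2 ± 3.98 in brown tissue with 1 copy, 4.25 ± 0.247 in wild-type brown tissue and 2.59 ± 0.383 in brown tissue with 2 copies (SD, n = 2 each). For Fosb every neighbouring pair of groups overlapped.

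Whether the genotype difference was itself unlike between depots was tested as brown effect minus white effect. In the contrasts against wild type, lymphocyte markers moved in white tissue and muscle markers in brown tissue, and their part was not tested. For Myc the difference was 0.84 ± 0.27 with 1 copy against wild type (adjusted p = 0.0367), -1.66 ± 0.30 with 2 copies against wild type (adjusted p = 0.00147) and -2.50 ± 0.29 with 2 copies against 1 copy (adjusted p = 0.00716). The last 2 of these were kept in 12 of 12 fits without a single library and the first in 5 of 12 (adjusted p up to 0.141). Myc with 2 copies therefore stood above wild type in white tissue and its value stood below wild type in brown tissue. Ier2 differed with 2 copies against wild type (-1.79 ± 0.50, adjusted p = 0.0191) and Atf3 with 1 copy against wild type (-2.64 ± 0.77, adjusted p = 0.0302), kept in 8 and 5 of 12 such fits. The calls came to 2 of 10 with 1 copy, 2 of 10 with 2 copies and 1 of 10 between copies, beside 32.6%, 42.2% and 3.80% of all genes. With median-of-ratios scaling the median of all genes moved by 0.14 for 1 copy and by 0.12 for 2 copies, and among all genes called for 1 copy the share with a higher effect in brown tissue was 56.1%, against 42.4% with TMM, while these calls on Myc, Ier2 and Atf3 stood.

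Counts for 9 other lists are read against the 52.0% (1 copy) and 61.0% (2 copies) of all genes called in white tissue, and in the same comparisons all 15 lymphocyte markers rose; the part of lymphocyte RNA in the list counts was not tested. Among 21 serum response, ternary complex and CREB factors and their kinases, 12 rose and 1 fell with 1 copy (61.9% called) and 13 rose and 2 fell with 2 copies (71.43%). Mkl1, a coactivator of the serum response factor, averaged 31.1 ± 2.21 CPM in wild type, 105.7 ± 0.375 CPM with 1 copy and 119.9 ± 2.82 CPM with 2 copies (SD, n = 2 each; log2 fold changes 1.77 ± 0.09 and 1.95 ± 0.09, adjusted p = 3.38e-05 and 1.99e-05). The ternary complex factor Elk4 (1.86 ± 0.18 and 1.96 ± 0.18) and the kinase Rps6ka1 (1.69 ± 0.10 and 1.91 ± 0.10) rose as well. Among 15 MAP kinase phosphatases and other feedback inhibitors 4 rose and 5 fell with 1 copy, and 3 rose and 4 fell with 2 copies. Dusp2, a nuclear phosphatase best known from activated lymphocytes, was at 1.14 and 0.892 CPM in wild type, 69.3 and 65.3 CPM with 1 copy and 83.1 and 74.3 CPM with 2 copies, a log2 fold change of 6.04 ± 0.15 and 6.27 ± 0.15 (adjusted p = 2.98e-06 and 2.39e-06).

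Relatives of the 10 genes were mixed in white tissue. Of 13 other AP-1 family genes 2 rose and 4 fell with 1 copy and 3 rose and 3 fell with 2 copies, 46.15% in each and below the share of all genes; those that rose included Batf (1.87 ± 0.19 and 2.19 ± 0.19) and Batf3 (1.86 ± 0.31 and 2.24 ± 0.31), AP-1 partners known from immune cells. Of 6 other Egr and Nr4a genes 3 rose with each copy number, 0 fell with 1 copy and 1 fell with 2 copies (3 and 4 of 6 called). Egr3, an early growth response factor active in lymphocytes, was at 4.65 and 2.45 CPM in wild type, 45.5 and 47.4 CPM with 1 copy and 45.4 and 58.6 CPM with 2 copies (log2 fold changes 3.70 ± 0.30 and 3.87 ± 0.30, adjusted p = 0.000525 and 0.000281). Of 49 other early response genes 17 rose and 14 fell with each copy number (63.27% called), led by the nuclear protein Csrnp1 (1.78 ± 0.09 and 2.07 ± 0.09), Ier5 (1.93 ± 0.11 and 2.15 ± 0.11) and the NF-kappa-B inhibitor Nfkbiz (1.36 ± 0.09 and 1.63 ± 0.09). Of 13 heat shock genes 0 rose and 6 fell with each copy number, also 46.15% and below the share of all genes, among them Bag3 (-0.90 ± 0.11 and -1.07 ± 0.11).

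Genes known to respond to Myc mostly rose, where called, in white tissue, and those called in brown tissue with 1 copy fell. Among 30 such genes, mostly of ribosome production, 15 rose and 3 fell in white tissue with 1 copy (60.0% called, near the 52.0% of all genes) and 19 rose and 2 fell with 2 copies (70.0%, near the 61.0% of all genes), with medians of 0.24 and 0.47 beside 0.01 over all genes. Npm1, a nucleolar chaperone of ribosome assembly, averaged 193.2 ± 3.995 CPM in wild type, 312.5 ± 13.5 CPM with 1 copy and 411.8 ± 5.34 CPM with 2 copies (SD, n = 2 each). In brown tissue with 1 copy, where Myc rose, 0 of the 30 rose and 4 fell by edgeR, among them Rrp12 (-1.18 ± 0.16, adjusted p = 0.0129), Gnl3 (-0.88 ± 0.13, adjusted p = 0.0168) and Ppan (-1.10 ± 0.19, adjusted p = 0.0235), with a median of -0.33 beside 0.01 over all genes. That is 13.33% called, against 4.07% of all genes, in the comparison in which 14 of 19 muscle markers fell. Of 14 genes of the Myc, Max and Mlx network 7 rose and 3 fell in white tissue with 1 copy and 8 rose and 3 fell with 2 copies (71.43% and 78.57% called). Mxd1 and Mnt, repressors that compete with Myc for Max, rose (1.77 ± 0.11 and 2.32 ± 0.11 for Mxd1, 1.13 ± 0.09 and 1.12 ± 0.09 for Mnt), and Mlxipl, a glucose-responsive activator of lipogenesis, fell, with 377.4 ± 73.5 CPM in wild type, 132.7 ± 14.4 CPM with 1 copy and 70.6 ± 7.62 CPM with 2 copies.

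In brown tissue the circadian clock list had the most calls of the other lists. With 1 copy the AP-1 partner Maff fell to 4.30 ± 0.663 CPM, against 18.1 ± 7.45 CPM in wild type (-2.10 ± 0.31 on the log2 scale, adjusted p = 0.0169), and Mafk fell with it (-0.79 ± 0.14, adjusted p = 0.0244). The kinase Sgk1 (-1.16 ± 0.16), the phosphatases Dusp16 (-1.67 ± 0.18) and Dusp8 (-2.74 ± 0.45) and the CREB coactivator Crebbp (-0.79 ± 0.15) fell, and the kinase Plk2 rose (0.97 ± 0.18). With 2 copies against 1 copy Maff (1.71 ± 0.31), Sgk1 (1.31 ± 0.16) and Dusp16 (1.11 ± 0.18) were higher. The clock output gene Dbp was, like Myc, highest in brown tissue with 1 copy, averaging 4.43 ± 1.37 CPM in wild type, 85.6 ± 8.34 CPM with 1 copy and 8.90 ± 0.0310 CPM with 2 copies, and of 18 circadian clock genes 8 rose and 2 fell with 1 copy (55.56% called, against 4.07% of all genes). Between 2 copies and 1 copy 2 of the 18 were higher and 6 lower (44.44%, against 1.95%). The labels place all deaths in the morning without a clock time, and a difference in hour between groups cannot be told apart from genotype.

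The genes most like Fos and Myc over the 12 libraries were found by Pearson correlation of log2 CPM centred within each depot, among 11812 genes. For Fos they were Dusp4 (r = 0.90), Hdac8 (0.88), Egr2 (0.87), Irf2bp2 (0.83) and Spint1 (0.80). Within brown tissue the r of Dusp4 with Fos was 0.94 over 6 libraries and within white tissue it was 0.07, so the likeness was seen in the brown libraries and not in the white ones. For Myc they were Zfp90 (r = 0.95), Trpc2 (0.94), Vamp4 (0.93), Kmt5c (0.91) and Tctn3 (0.91), and Zfp90 followed Myc within brown (0.98) and within white tissue (0.99). These libraries share genotype, depth and tissue composition, and the values are descriptions of these 12 libraries.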

How the data were processed

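RNA-seq counts were available for 12 libraries in 6 tissue by genotype groups. Per the labels' protocols, RNA was extracted with Trizol and RNeasy columns and libraries were made with a stranded mRNA kit. Per the submitters' processing notes, STAR, featureCounts and Subread were used with the mm10 build; versions, annotation and strand setting are not given in the sources used here. The deposited values are raw read counts per gene, which the authors did not normalize. Genes were filtered (filterByExpr), scaled by TMM and tested with edgeR 4.0.16's quasi-likelihood test in R 4.3.3, with Benjamini-Hochberg adjustment over all genes of a fit and a threshold of 0.05. Comparisons within a depot used its 6 libraries and the others all 12. Printed CPM use TMM factors of the 12 libraries (0.804 to 1.31). SE is the log2 fold change divided by the root of F. DESeq2 1.42.0, other scalings and filters, the fit of all 12 libraries and fits without a single library were the alternatives. The method was also run on simulated counts with known changes in randomly drawn genes above a minimum level, which does not cover changes in genes below it. Gene coordinates and lengths came from GENCODE on GRCm38 and promoters from RefSeq.

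The 10 genes and the lists were chosen with earlier results of these data known. All 10 genes are named in every comparison, of the other lists up to 3 called genes with the smallest adjusted p within a depot and 1 elsewhere, and for likeness the 5 genes with the highest r. CRE, Zic1, Hoxc10, Lep and the marker sums are given as checks of the libraries. Replicates were numbered in accession order.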

Additional observations from a re-analysis of the deposited data

Results flagged for a closer look

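The genotype difference was not the same in brown and white tissue, by the test of the difference itself, for 3 of the 10 genes. The brown minus white log2 difference was 0.84 for Myc with 1 copy against wild type, -1.66 for Myc with 2 copies against wild type and -2.50 for Myc with 2 copies against 1 copy. It was -1.79 for Ier2 with 2 copies and -2.64 for Atf3 with 1 copy, each against wild type. The tests called 2 of the 10 genes for each copy number against wild type, below the 32.6% (1 copy) and 42.2% (2 copies) of all genes. Myc with 1 copy and Atf3 were kept in 5 and Ier2 in 8 of 12 fits without a single library.

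For each of the other lists and each contrast, only the gene called by the same test with the smallest adjusted p is named here. Among them were genes whose effect was lower in brown than in white tissue. With 1 copy against wild type these were the phosphatase Dusp2 at -6.55, the Egr corepressor Nab2 at -1.89, the heat shock gene Dnajb1 at -1.86, the kinase Rps6ka1 at -1.78, Btg1 at -1.70, Wdr43 at -1.20, the AP-1 partner Mafk at -0.99 and Mlxip at -0.87. With 2 copies against wild type they were Dusp2 at -6.61, Batf3 at -3.26, Mkl1 at -2.21, Nab2 at -1.46 and Npm1 at -1.13, and with 2 copies against 1 copy the clock output gene Dbp at -2.60.

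Of the genes named by this rule, the effect was higher in brown than in white tissue for Cry2 with 1 copy against wild type at 1.28. With 2 copies against wild type it was higher for the early response gene Klf9 at 2.50, the lipogenic activator Mlxipl at 2.47 and the clock gene Rora at 1.32. With 2 copies against 1 copy it was higher for Sgk1 at 1.37, the heat shock cochaperone Bag3 at 1.25 and the phosphatase Dusp3 at 0.96. Lymphocyte markers in the transgenic white libraries and muscle markers in the wild-type brown ones moved with these contrasts, and their part in the results was not tested.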

How the results depend on the processing

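Log2 fold changes of the 10 genes changed sign in 55 of 1080 values with a library left out and in 4 of 540 with other settings. Of these, 2 were values called in either fit, both uncalled with all libraries. Without replicate 2 of wild-type white tissue, Fosb with 1 copy against wild type went to 1.44. Without replicate 1 of brown tissue with 2 copies, Jun of brown over white with 2 copies went to -0.83. The ranges over all left-out libraries were -1.44 to 1.44 for Fosb and -0.83 to 0.72 for Jun. The cause was not tested. DESeq2 called 2 of the 10 genes in brown 1 copy against wild type, 2 in white 2 copies against 1 copy and 4 in the brown minus white effect of 2 copies. The fit of all 12 libraries, which shares the wider brown spread with white tissue, called 2 in brown 1 copy against wild type, 3 in white 1 copy and 4 in white 2 copies against wild type.

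Leaving out each library in turn gave these counts of the 10 genes called. Within brown tissue they were 0 to 1 (1 copy against wild type) and 0 to 2 (2 copies against 1 copy), and within white tissue 6 to 7 (1 copy), 7 to 8 (2 copies, each against wild type) and 0 to 1 (2 copies against 1 copy). Between depots they were 3 to 5 in wild type, 2 to 5 with 1 copy and 4 to 7 with 2 copies. For the brown minus white effect they were 0 to 3 (1 copy), 1 to 6 (2 copies) and 1 to 2 (2 copies against 1 copy).

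Counts over all genes moved by more than 1.5 times in these comparisons. For brown 1 copy against wild type, 546 genes became 1021 with DESeq2, 1004 with all 12 libraries and 26 to 880 without a library. For brown 2 copies against wild type, 173 became 656 with DESeq2, 353 unfiltered and 8 to 334 without a library. For brown 2 copies against 1 copy, 262 became 958 with DESeq2, 796 with all 12 libraries, 516 unfiltered and 7 to 812 without a library. For white 2 copies against 1 copy, 285 became 1201 with DESeq2, 780 with all 12 libraries and 0 to 586 without a library. For white 1 copy against wild type, 7951 became 5113 to 7237 without a library, a move of over 1.5 times without either 1-copy library. For the brown minus white effect of 2 copies against 1 copy, 591 became 1291 with DESeq2 and 25 to 787 without a library.

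No paired analysis was possible because the labels do not say which depots were taken from one animal. With 2 libraries a group, and Fos and Fosb at 5 to 15 reads in some brown libraries, differences in brown tissue below the spread of these genes were not detectable.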
